A study of Drosophila melanogaster with 6 samples.

Results

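Dpr, DIP, beat and side genes code for immunoglobulin-family cell-surface and secreted proteins of the fly nervous system. The members were all genes of the deposited count table whose FlyBase symbol was dpr with a number, began with DIP- or beat-, or was side or began with side-. This gave 54 of 17753 genes, of which 21 were Dpr, 11 DIP, 14 beat and 8 side genes. The samples were 6 RNA-seq libraries of male *Drosophila melanogaster* at day 10, all of one genotype that carried Repo-GS, an inducible driver for all glia, and Ugt35b RNAi, a construct that targets a UDP-glycosyltransferase gene. Controls received EtOH, the solvent, and the other flies received RU486, the drug that switches the driver on, with 3 libraries of 10 pooled flies per group. The tissue is labelled head, although the extraction text names brains. No RU486 library without the construct was analysed here, so drug and knockdown cannot be told apart. Whether replicate libraries stem from separate cultures is not said in the labels, and p-values here reflect library-to-library spread that may be technical.

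In the fly, each Dpr protein (named after the defective proboscis extension response of a mutant) binds selected DIPs, the Dpr-interacting proteins. Synaptic partners often carry matching Dpr and DIP pairs, for example in the lamina and medulla of the optic lobe, in the mushroom body and at neuromuscular junctions. The beat proteins are named after beaten path, a motor axon guidance gene. They act as receptors for proteins of the sidestep (side) family, and side itself guides motor axons towards muscle.

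Totals ranged from 10156909 to 12636787 counts per library. The construct's target, Ugt35B1 in FlyBase, was at 145, 137 and 147 CPM (read counts scaled to a common library size with TMM factors) in EtOH replicates 1 to 3 and at 106, 83.5 and 104 CPM in RU486 replicates 1 to 3, with all 3 RU486 libraries below all 3 EtOH libraries. Its log2 fold change was -0.54 (SE 0.09, edgeR adjusted p = 0.00865). The photoreceptor gene ninaE was at 36988 to 44894 CPM and the muscle gene Mhc at 1500 to 1935 CPM, so the libraries held RNA of eye and muscle. Neuronal markers were abundant, with nSyb at 1499 to 1795 CPM and Syt1 at 1173 to 1739 CPM. Of the other neuronal markers, VAChT, which is nested in ChAT, was listed at 0, and elav had 6 counts in each of 2 libraries and 0 in the others.

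Of the 54 members, 52 passed the filter on low counts and were tested. The exceptions were DIP-iota, with 2 to 14 counts per library, and beat-IIIa, which had 0 counts in all 6. All exon bases of beat-IIIa are shared with CG34106, a gene on the same strand that encloses it, and it is treated here as not measured. Exons of side-IV overlap antisense RNA genes over 67.5% of their length, so its counts are uncertain.

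RU486 libraries differed from EtOH libraries in 5 of the 52 genes. The side family genes side-V and side-VIII and the beat family gene beat-IIIc rose by 1.41-fold, 1.28-fold and 1.26-fold, and dpr13 and DIP-lambda were 1.26-fold and 1.37-fold lower. These 5 calls were 9.62% of the members tested, against 7.64% of all 8945 genes tested, a share close to the background. By direction, 3 members (5.77%) were higher, against 4.36% of all genes, and 2 (3.85%) were lower, against 3.28%. Calls required an adjusted p under 0.05 from edgeR's two-sided quasi-likelihood test, adjusted over all genes tested.

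The largest difference among the members was that of side-V (FBgn0085400, chromosome 2R, 23163012 to 23203973, minus strand, build BDGP6). It was at 83.5, 90.9 and 83.3 CPM in EtOH replicates 1 to 3 and at 123, 111 and 129 CPM in RU486 replicates 1 to 3. Every RU486 library lay above every EtOH library, with 90.9 CPM as the highest EtOH value and 111 CPM as the lowest RU486 value. The log2 fold change was 0.49 (SE 0.08, adjusted p = 0.00451). This was the 1 member called in each of the 6 fits that left out 1 library, with adjusted p from 0.00476 to 0.0401.

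The side gene with the most reads, side-VIII (FBgn0086604, chromosome 2R, 20424338 to 20478951, plus strand), was at 142, 155 and 136 CPM in EtOH and at 197, 187 and 171 CPM in RU486. Again no RU486 library reached down to the EtOH range. Its log2 fold change was 0.36 (SE 0.08, adjusted p = 0.0325), and the call was lost without EtOH replicate 1 or 3 or RU486 replicate 1 or 2 (adjusted p from 0.0984 to 0.141).

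Among the beat genes, beat-IIIc (FBgn0032629, chromosome 2L, 17187637 to 17260734, minus strand) was the only one called. It was at 30.3, 33.3 and 32.9 CPM in EtOH and at 41.1, 41.1 and 39.8 CPM in RU486, where the 3 libraries nearly coincided. The log2 fold change was 0.34 (SE 0.08, adjusted p = 0.0286). Its related gene beat-IIIb, with means of 56.3 ± 5.33 CPM under EtOH and 50.5 ± 2.55 CPM under RU486 (SD, n = 3), did not pass (log2 fold change -0.16, SE 0.09). The beat-IIIc call was kept without EtOH replicate 2 alone (adjusted p = 0.0200), and in the other 5 such fits the adjusted p ran from 0.0799 to 0.127.

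The Dpr gene dpr13 (FBgn0034286, chromosome 2R, 17975122 to 18007902, minus strand) was at 43.6, 47.0 and 46.4 CPM in EtOH and at 36.6, 34.3 and 37.4 CPM in RU486. The groups did not overlap, and the spread within each was small beside the distance between them. The log2 fold change was -0.34 (SE 0.08, adjusted p = 0.0307). Leaving out EtOH replicate 3 or any 1 RU486 library ended the call, with adjusted p from 0.0716 to 0.124.

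The fall of DIP-lambda (FBgn0267428, chromosome 2R, 326768 to 705848, plus strand) rested on fewer counts, 178 to 339 per library. It was at 22.7, 28.8 and 26.3 CPM in EtOH and at 20.4, 18.7 and 17.6 CPM in RU486, so the highest RU486 library lay only just below the lowest EtOH library. Its log2 fold change was -0.46 (SE 0.11, adjusted p = 0.0457). The call was kept only without EtOH replicate 1 (adjusted p = 0.0418), and the other 5 fits without 1 library gave 0.0616 to 0.162.

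**Figure D1:**
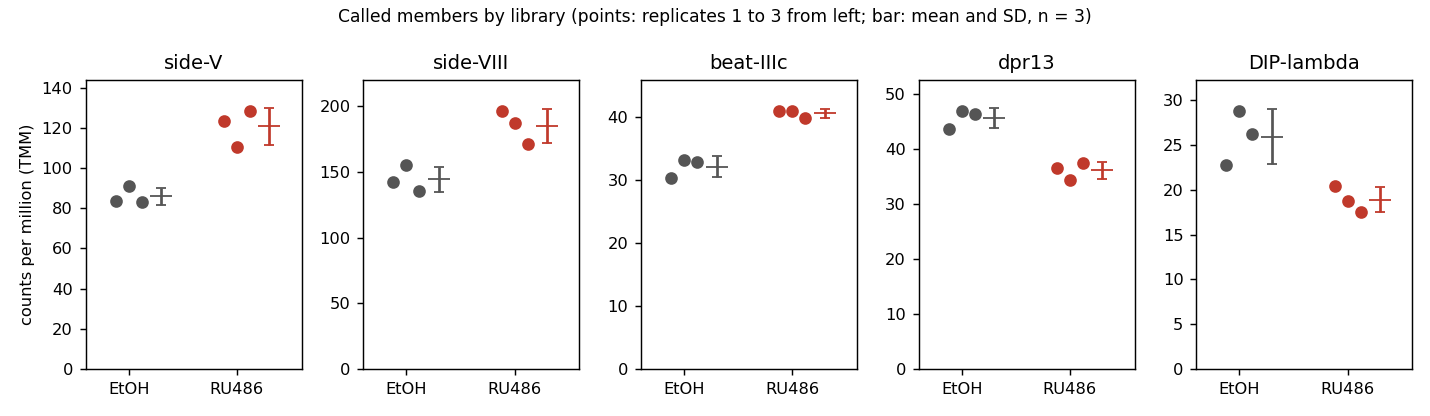
CPM (TMM-scaled, linear axes from 0) of the 5 called members in each library, with EtOH in grey and RU486 in red, points for replicates 1 to 3 from left to right, and bars for the mean and SD (n = 3). The 2 side genes and beat-IIIc lie higher in RU486, dpr13 and DIP-lambda lower, and in no panel do the groups overlap, though the gap is narrow for DIP-lambda.

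**Figure D2:**
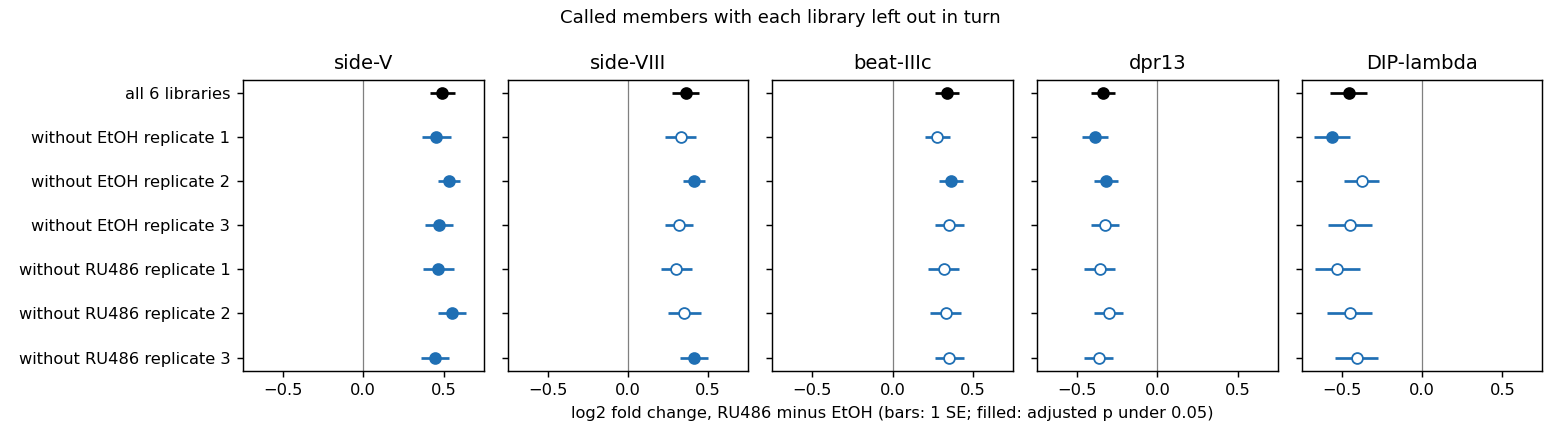
Log2 fold change (RU486 minus EtOH, horizontal axis, bars of 1 SE) of the 5 called members with all 6 libraries (black) and with each library left out in turn (blue). Filled points have an adjusted p under 0.05. Each gene keeps its direction in every fit, and side-V is filled in all 6 fits that omit a library.

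Of the 47 members not called, 40 had a log2 fold change below 0 and 7 above, with 0.38 as the largest size. Counted with the called ones, 42 of 52 members (80.8%) had a log2 fold change below 0, against 49.4% of all genes tested. The median over members was -0.11, while that over all genes was 0.00. An unadjusted p under 0.05 was found for 17 members (32.7%), against 22.3% of all genes. Of these, 14 (26.9% of members) were lower, against 10.7% of all genes, and 3 (5.77%) were higher, against 11.6%. The groups did not overlap for 15 members (28.8%), against 27.3% of all genes. RU486 lay below in 12 of these (23.1%), against 13.5%, and above in 3 (5.77%), against 13.9%. The members share the same 6 libraries, so these counts are descriptions of the list and not a test of it.

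The 4 families did not share 1 pattern. In the Dpr family 1 gene fell, 20 were not called and none rose, and 18 of 21 had values below 0 with a median log2 fold change of -0.11. For the DIP genes the counts were 1 lower, 0 higher and 9 not called, with 9 of 10 below 0 and a median of -0.10. In the beat family 1 rose, 0 fell and 12 did not pass, and 12 of 13 were below 0 with a median of -0.16. For side genes, 2 rose, 0 fell and 6 did not pass, 3 of 8 were below 0 and the median was 0.07. All 4 medians moved with single EtOH libraries. The side median was -0.05 without EtOH replicate 1, -0.04 without EtOH replicate 3 and 0.26 without EtOH replicate 2. Without EtOH replicate 2 the Dpr median was -0.04 with 12 of 21 genes below 0, and 7 of 10 DIP genes were below 0. In the same fit 11 of 13 beat genes were still below 0. Without EtOH replicate 1 the medians were -0.22 for Dpr, -0.19 for DIP and -0.26 for beat genes.

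**Figure D3:**
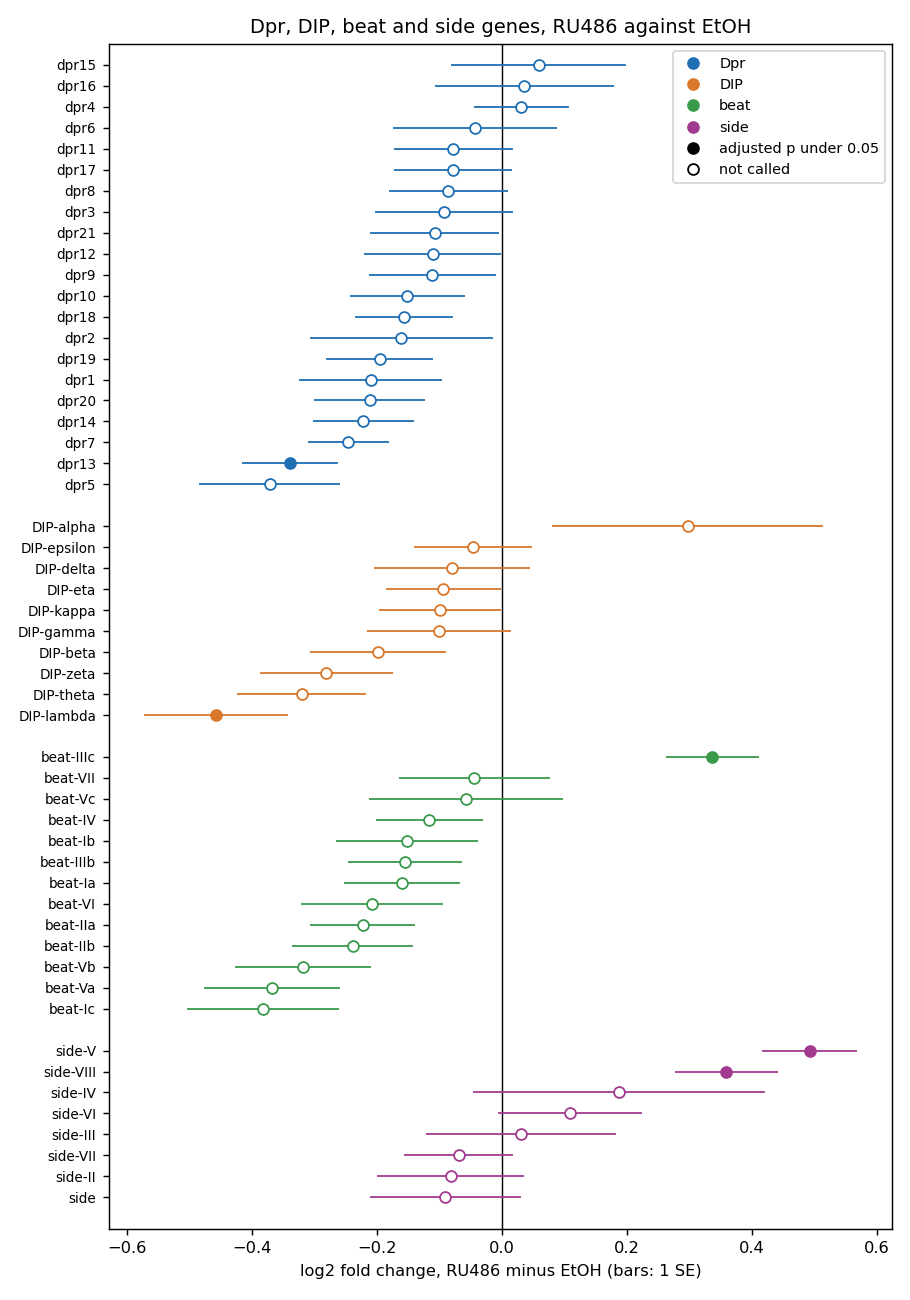
Log2 fold change (RU486 minus EtOH, horizontal axis, bars of 1 SE) of the 52 tested members, ordered within each family. Most Dpr, DIP and beat genes lie left of 0 without being called, whereas the side genes run from -0.09 for side to 0.49 for side-V.

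Summed over each family, the Dpr genes were at 1341, 1618 and 1443 CPM in EtOH replicates 1 to 3 and at 1285, 1331 and 1397 CPM in RU486. The DIP genes summed to 309, 365 and 332 CPM in EtOH and to 303, 297 and 304 CPM in RU486, and the beat genes to 561, 681 and 629 CPM in EtOH and 529, 572 and 590 CPM in RU486. The sums of the DIP genes did not overlap between groups, but those of the Dpr and beat genes did. The DIP gap was narrow, from 309 CPM in EtOH replicate 1 to 304 CPM in RU486 replicate 3, and includes the called gene DIP-lambda. Without DIP-lambda, the DIP sums had means of 309 ± 25.1 CPM under EtOH and 282.5 ± 3.94 CPM under RU486 (SD, n = 3). Side genes summed to 644, 816 and 655 CPM in EtOH and to 775, 766 and 789 CPM in RU486, so EtOH replicate 2 was above all RU486 libraries and EtOH replicates 1 and 3 were below them. Without the called genes side-V and side-VIII, the side family had summed means of 475 ± 83.0 CPM under EtOH and 471 ± 17.2 CPM under RU486 (SD, n = 3). In bulk tissue, fewer cells of a type and less RNA per cell cannot be told apart.

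EtOH replicate 2 stood apart for these genes. It held the highest CPM of the 6 libraries for 37 of the 53 members with counts, while it was highest for 18.4% of all tested genes. The list of neuronal markers was highest there too, with a summed level of 6874 CPM. The other EtOH libraries were at 4607 and 5103 CPM and RU486 at 5544 to 5797 CPM. The excess differed between markers. In EtOH replicate 2, para was at 1129 CPM against 453 and 483 CPM in EtOH replicates 1 and 3, but nSyb at 1795 against 1663 and 1775 CPM. The summed muscle list was also highest there, at 4112 CPM against 3496 and 3413 CPM in EtOH and 3640 to 3926 CPM in RU486. Its genes differed too: in EtOH replicate 2 Mhc was at 1935 against 1602 and 1500 CPM, and sls at 721 against 452 and 425 CPM. By contrast, Mlc2, Mlc1 and Act88F were lowest of the EtOH libraries in EtOH replicate 2, at 449, 169 and 24.6 CPM. Of the neuronal list's 7 tested genes 0 were called (median log2 fold change 0.13), and the list was split in direction. The 2 below 0 were nSyb (-0.16, SE 0.06) and ChAT (-0.15, SE 0.07). The others ran from 0.00 (SE 0.12) for Syt1 to 0.33 (SE 0.31) for para. VAChT was at 0 in every library as above, and the part of neuronal content in the members' values was not tested. Without EtOH replicate 2, 31 of 52 members (59.6%) were below 0 and their median was -0.05. The neuronal marker median was 0.40 in that fit, -0.05 without EtOH replicate 1 and 0.03 without EtOH replicate 3. Without EtOH replicate 1, 45 of 52 members were below 0 with a median of -0.20.

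**Figure D4:**
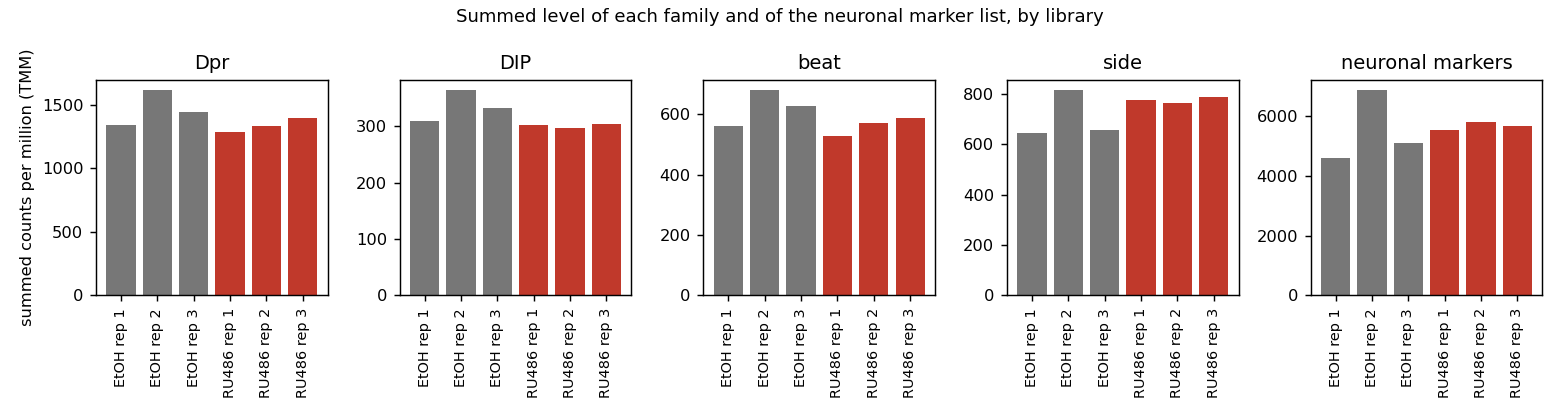
Summed CPM (TMM-scaled, vertical axes from 0) of each family and of the neuronal marker list in each library, with EtOH in grey and RU486 in red. EtOH replicate 2 is the tallest bar in every panel. The 3 RU486 bars are close to each other, and in the side panel they exceed EtOH replicates 1 and 3.

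The members are long genes. Their genomic span had a median of 36154 bases, from 3738 for dpr19 to 379081 for DIP-lambda, against a median of 3065 bases over the 8877 tested genes with an annotated length. The top quartile of tested genes by span, 7554 bases or more, had a median log2 fold change of 0.07, with 35.1% of values below 0. In that quartile lay 45 of the 52 members, and 35 of those 45 had values below 0. This background moved with single libraries: the quartile's median was 0.14 with 26.6% below 0 without EtOH replicate 2, and 0.01 with 47.9% below 0 without EtOH replicate 1.

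Levels of different members can be set side by side only per length of exon. On the scale of CPM per kilobase of exon, dpr21 and dpr7 stood highest in EtOH at 102 ± 15.0 and 87.9 ± 4.18 (SD, n = 3), and dpr12 followed at 52.3 ± 7.93. The ranges of dpr21 and dpr7 were too wide to order them, since the lowest dpr21 library lay within the range of dpr7. All other members stood at 29.1 or less, and dpr18, beat-IIa and side-VIII led these with 29.1 ± 1.79, 28.2 ± 1.69 and 26.2 ± 1.78. At the other end of the 52 tested members, side-IV stood at 2.85 ± 1.08 and DIP-alpha at 0.526 ± 0.0902. This order depends on the annotated exon length, which was 0.993 kb for dpr21, 1.515 kb for dpr7 and 8.983 kb for DIP-alpha. The family medians over tested members in EtOH were 17.5 for Dpr, 15.0 for beat, 12.3 for side and 10.2 for DIP genes.

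The 3 Dpr genes with the most reads were not called. Of these, dpr12, known from the mushroom body as the partner of DIP-delta, was at 214, 287 and 236 CPM in EtOH and 220, 230 and 234 CPM in RU486, with a log2 fold change of -0.11 (SE 0.11) and overlapping groups. For dpr21 the values were 89.9, 118 and 96.0 CPM in EtOH and 87.9, 97.0 and 97.4 CPM in RU486, and again EtOH replicate 2 was the highest. In dpr7 the groups did not overlap, with 128, 131 and 140 CPM in EtOH and 109, 110 and 117 CPM in RU486, and the log2 fold change of -0.25 (SE 0.06) narrowly missed the threshold (adjusted p = 0.0546). It was called without EtOH replicate 2 (adjusted p = 0.0316), with upper-quartile factors (0.0370) and with a robust prior (0.0467). The DIP genes with the most reads, a ranking that gene length affects, were DIP-epsilon (log2 fold change -0.05, SE 0.09), DIP-beta (-0.20, SE 0.11) and DIP-kappa (-0.10, SE 0.10), and none was called. Nor were beat-VII (-0.04, SE 0.12), beat-Ib (-0.15, SE 0.11) and side-VII (-0.07, SE 0.09), which ranked in the first 3 of their families.

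Others had an unadjusted p under 0.05 without passing the adjustment. In the Dpr family these were dpr5 (log2 fold change -0.37, SE 0.11), dpr14 (-0.22, SE 0.08), dpr20 (-0.21, SE 0.09) and dpr19 (-0.20, SE 0.09). DIP-theta (-0.32, SE 0.10) and DIP-zeta (-0.28, SE 0.11) were the DIP genes, and the RU486 libraries lay below the EtOH libraries for both. The beat genes were beat-Ic (-0.38, SE 0.12), beat-Va (-0.37, SE 0.11), beat-Vb (-0.32, SE 0.11), beat-IIb (-0.24, SE 0.10) and beat-IIa (-0.22, SE 0.08). Their adjusted p ran from 0.0778 for beat-Va to 0.222 for dpr19, so none of them counts as changed here.

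A fixed selection of partner sets known from binding studies in the fly was compared side by side. It is not complete: DIP-alpha, DIP-gamma and DIP-delta were its only DIP genes, and partners of the called members were not looked up. None of the 25 genes in these sets was called, and 11 of them changed sign when 1 library was left out. DIP-alpha, known from motor neurons, and its partners dpr6 and dpr10 had log2 fold changes of 0.30 (SE 0.22), -0.04 (SE 0.13) and -0.15 (SE 0.09). DIP-alpha had only 47 to 66 counts per library, and its SE was the second largest among the members. For DIP-gamma, known from medulla neurons, the value was -0.10 (SE 0.12), and its partners dpr11, dpr15, dpr16 and dpr17 ran from -0.08 to 0.06. DIP-delta stood at -0.08 (SE 0.12) beside the -0.11 of dpr12.

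Receptors of the beat family were set beside their side ligands in the same way. The axon guidance receptor gene beat-Ia had a log2 fold change of -0.16 (SE 0.09), beside -0.15 for beat-Ib, -0.38 for beat-Ic and -0.09 (SE 0.12) for their ligand gene side. Both beat-IIa and beat-IIb stood below 0, at -0.22 and -0.24, whereas their ligand gene side-IV stood at 0.19 (SE 0.23) with EtOH values of 13.1, 20.7 and 9.92 CPM. Leaving out 1 library moved side-IV between -0.03 and 0.52, so its sign was not stable. The receptor genes beat-Va, beat-Vb and beat-Vc were at -0.37, -0.32 and -0.06, and their ligand gene side-VI at 0.11 (SE 0.12). Without EtOH replicate 2, side-VI was called higher (log2 fold change 0.27, adjusted p = 0.0248). For beat-VI and side-II the values were -0.21 and -0.08, and for beat-IV and side-VII -0.12 and -0.07. With these SEs, no difference between a receptor and its ligand was tested or read from the values.

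**Figure D5:**
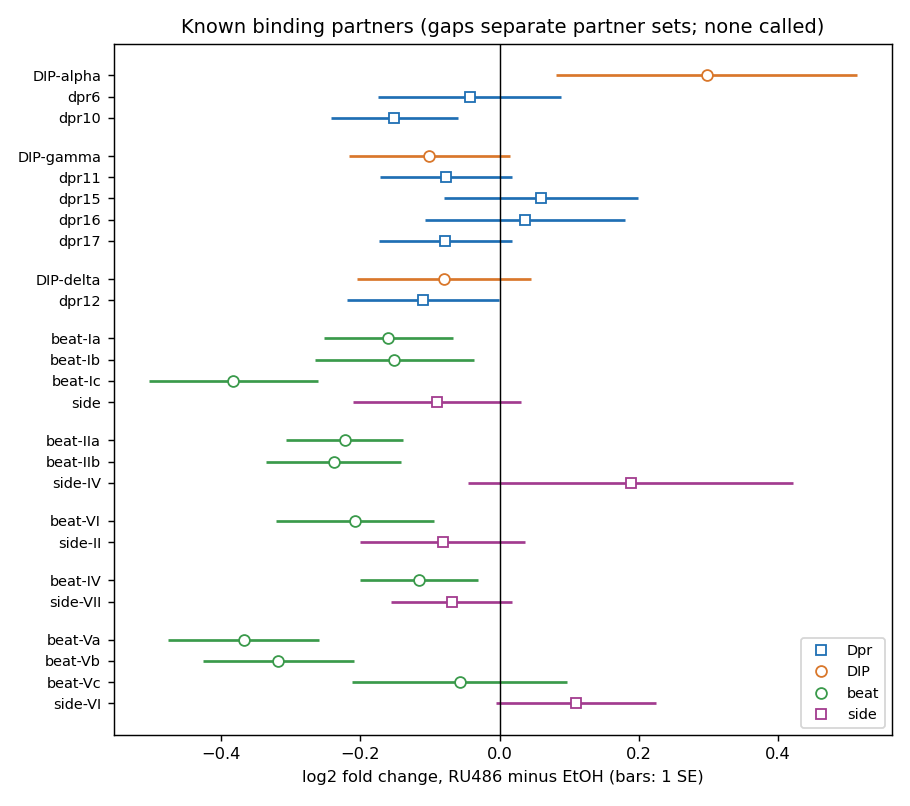
Log2 fold change (RU486 minus EtOH, horizontal axis, bars of 1 SE) of the selected binding partners. Circles are DIP and beat genes, squares are Dpr and side genes, and gaps separate partner sets. No gene shown was called. The beat genes all lie left of 0, and side-IV and side-VI lie right of it.

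Many members sit next to a relative on the chromosome. Within 100 kb of each other lay 10 pairs of neighbouring members, which held 18 genes. The DIP genes DIP-eta and DIP-theta are 8.34 kb apart on chromosome 2L, with log2 fold changes of -0.09 and -0.32. On chromosome 3L, dpr6 and dpr10, which share the partner DIP-alpha, are 8.09 kb apart and stood at -0.04 and -0.15. In the beat-V group on chromosome 3R, beat-Va and beat-Vb were close in value and beat-Vc was nearer to 0. The neighbours dpr5 and dpr4 lay further apart in value, at -0.37 (SE 0.11) and 0.03 (SE 0.08).

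Other genes of neuronal adhesion and guidance were read from a list of 62, of which 57 were tested. In it 5 genes rose, 1 fell and 51 did not pass, while 22 had log2 fold changes below 0 with a median of 0.05. Of all genes tested, 4.36% were called higher, 3.28% were called lower and 49.4% were below 0. This list, like the marker lists, was chosen with earlier results of these data known, so its counts are a description only. Tollo, a Toll-family receptor, rose from 19.9 ± 2.52 to 54.5 ± 6.03 CPM (SD, n = 3), and bdl, an immunoglobulin-family protein of photoreceptors and glia, from 413 ± 25.5 to 685 ± 36.1 CPM. The guidance ligand gene sli, the receptor phosphatase gene Ptp10D and the teneurin gene Ten-m, known for matching synaptic partners, rose by 0.65 (SE 0.13), 0.43 (SE 0.09) and 0.51 (SE 0.13) on the log2 scale. The leucine-rich repeat gene trn fell from 34.5 ± 3.18 to 26.9 ± 1.16 CPM. The calls of Ten-m and trn were close to the threshold (adjusted p = 0.0472 and 0.0487). The list's median was -0.05 without EtOH replicate 1, 0.00 without EtOH replicate 3 and 0.17 without EtOH replicate 2. Glial markers moved in both directions, with 3 of 11 higher and 3 lower. On the log2 scale wrapper, Gat and zyd fell by 2.10, 1.92 and 0.89, and Mdr65, bdl and loco rose by 0.95, 0.73 and 0.35. The summed level of the list was 4287 to 4410 CPM in EtOH and 4230 to 4611 CPM in RU486. Gs2, which was not called, held 1967 to 2192 CPM of it, so the sum says little about the other glial markers. Photoreceptor and muscle lists had 0 called genes out of 10 and 9 tested. Of these, 10 photoreceptor and 6 muscle genes had log2 fold changes below 0, with medians of -0.13 and -0.10, beside -0.11 for the members. The part of these cell types in the members' values was not tested.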

How the data were processed

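mRNA of 10 male flies per library, from 500 ng of total RNA with a stranded kit per the labels' protocols, was sequenced in 3 EtOH and 3 RU486 libraries. The authors deposited a table of values per gene under COUNT headings, and these were treated here as raw read counts without normalisation. BDGP6 is the build in the submitters' processing notes; no aligner, counting program or strand setting is given in the sources used here. Symbols were matched by FlyBase identifier for 17626 of 17753 genes. Coordinates and exon lengths came from Ensembl release 115 (BDGP6.54) and are 1-based.

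Counts were fitted in R 4.3.3 with edgeR 4.0.16 over all genes (filterByExpr with a minimum count of 10, TMM factors, quasi-likelihood test, Benjamini-Hochberg adjustment). A log2 fold change compares RU486 with EtOH, and its SE is its absolute value over the root of the F statistic. The CPM values use the fit's TMM-scaled library sizes. Named members were those called, those with an unadjusted p under 0.05, the 3 with the highest mean CPM in each family, and those of the fixed partner pairs. These pairs are a selection and include no called member. The 2 genes named for their filter status (DIP-iota, beat-IIIa) and those of the length, neighbour and per-kilobase comparisons were chosen after their values were seen. Members and lists were chosen with earlier results of these data known. Alternatives were other scalings, filters, tests (DESeq2 1.42.0, limma-voom 3.58.1) and thresholds, a replicate block, and each library left out. On simulated counts of 8888 genes for this comparison, 86.4% of 88 genes with a log2 change of 1 were recovered and 26.1% of 111 with 0.5, with 7 false calls among 112. Library pairs within a group differed by more than counting noise, so none was merged. No sequences were printed.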

Additional observations from a re-analysis of the deposited data

How the results depend on the processing

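All genes called numbered 683, and 321 and 1114 at adjusted p under 0.01 and 0.1; without 1 library they ran from 341 to 1441. Members called higher numbered 3, with 1 at 0.01 and 1 to 4 without 1 library. Members called lower numbered 2, with 1 without a filter, 1 with limma-voom, 0 at 0.01, 6 at 0.1 and 0 to 2 without 1 library. Scaling by DESeq2 size factors, library size or upper-quartile factors left the same 5 members called, with dpr7 added by upper-quartile factors, and 42 to 44 of 52 members below 0. The call of beat-IIIc was lost without a filter (adjusted p = 0.0599) and with the DESeq2 Wald test (0.0554), and that of DIP-lambda without a filter (0.0557) and with limma-voom (0.0536). These causes were not tested.

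Over the 52 tested members and 15 refits, 726 of 780 log2 fold changes kept their direction and side of the threshold, 22 lost and 5 gained a call, and 27 reversed. The reversals were in 18 members, 0 of them called, and 11 reversed without EtOH replicate 2. Upper-quartile factors reversed dpr4 (-0.0023) and side-III (-0.0018). Without 1 library the values ran from -0.180 to 0.058 for DIP-delta, -0.106 to 0.047 for DIP-epsilon and -0.199 to 0.043 for DIP-gamma. They ran from -0.164 to 0.041 for dpr11, -0.218 to 0.015 for dpr12, -0.078 to 0.231 for dpr15, -0.089 to 0.146 for dpr16 and -0.206 to 0.016 for dpr21. For dpr3 the range was -0.184 to 0.0077, for dpr4 -0.015 to 0.079, for dpr6 -0.169 to 0.073 and for dpr8 -0.154 to 0.031. It was -0.175 to 0.074 for beat-VII, -0.231 to 0.023 for beat-Vc, -0.189 to 0.079 for side, -0.208 to 0.023 for side-II, -0.111 to 0.254 for side-III and -0.028 to 0.525 for side-IV. The side family median ran from -0.047 (without EtOH replicate 1) to 0.261 (without EtOH replicate 2) and was -0.039 without EtOH replicate 3. Same-numbered libraries deviated together with correlations of 0.115, 0.224 and 0.00194. EtOH replicates 1 and 2 each correlated best with the RU486 library of the same number, and EtOH replicate 3 with RU486 replicate 1. With correlations this low, whether the numbers pair the libraries cannot be told. The replicate block gave 872 calls over all genes and 3 members higher and 3 lower, adding beat-Ic (adjusted p = 0.0431). With 3 libraries a group and SEs of 0.06 to 0.23, changes of the size seen here can be missed: 26.1% of simulated log2 changes of 0.5 were recovered. Fewer genes were called in the simulation (112) than in the data (683). The adjustment depends on how many genes change, so the recovered share need not hold for these data.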

Other observations

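The marker lists of the fat body, the gut and the cuticle also held called genes. Of 7 tested fat body markers 4 fell and 1 rose, of 7 gut genes 3 rose, and of 5 cuticle and Osiris genes 3 rose. Over all genes tested, 4.36% were called higher and 3.28% lower. These lists were chosen with earlier results of these data known, so the counts describe the listed genes and not the tissues. The summed gut list stood at 26.5 to 48.3 CPM in EtOH and at 38.2, 7946 and 810.7 CPM in RU486 replicates 1 to 3, so RU486 replicate 1 lay within the EtOH range. Summed over all Dpr, DIP, beat and side genes, the same 3 libraries stood at 2893, 2967 and 3079 CPM.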
